A study of Mus musculus with 6 samples.

Results

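The genes described here are the Notch receptors, their ligands and the Hes/Hey genes they act on, 10 genes named by symbol: the receptors Notch1, Notch2 and Notch3, the ligands Dll1, Jag1 and Jag2, and the target genes Hes1, Hes5, Hey1 and Hey2. Each symbol was matched to exactly 1 row of the 54532 genes in the count table, and all 10 had enough reads to be tested. The RNA came from spinal cord of C57BL/6J mice, all with a spinal cord injury, collected at day 28 as counted from training. The mice of 3 libraries had rotarod training, in which a mouse walks on a turning rod so as not to fall, and those of the other 3 had none; no library of uninjured cord is among them. The sources used here give no age, sex or type and level of injury. Nothing in the labels ties each library to its own mouse, and p-values therefore measure only the spread between libraries, part of which may be technical. Values per library are given in the order of replicates 1, 2 and 3 of a group throughout.

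Notch signalling passes between touching cells. A ligand of the Delta or Jagged family on one cell binds a Notch receptor on its neighbour, the receptor is cut by an ADAM protease and then by gamma-secretase, and its freed intracellular domain enters the nucleus and joins the DNA-binding protein RBPJ. The classic genes switched on there are the Hes and Hey repressors, basic helix-loop-helix transcription factors. In the central nervous system the pathway is known for keeping neural progenitors undifferentiated, for astrocyte fate and for the blood vessel wall, where Notch3 is the receptor of smooth muscle cells and pericytes.

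None of the 10 genes differed between trained and untrained cord at an adjusted p below 0.05 in edgeR's quasi-likelihood test, in which 0.0591% of the 16909 genes tested passed. DESeq2 and limma-voom also called 0 of the 10. At an unadjusted edgeR p below 0.05 there were 2 of 10, Hes1 and Notch3, both lower in trained cord, where 5.55% of all genes tested were lower at that level; 0 of 10 were higher, against 4.47%. The groups did not overlap in 4 of 10: Hes1 and Notch3 lay lower in every trained library than in any untrained one, and Dll1 and Hey2 lay higher. Of all genes tested the groups did not overlap in 16.8%, 8.69% lower and 8.13% higher in trained cord. With 10 genes, each adds 10 percentage points to such a share. The log2 fold changes of trained over untrained cord were positive in 5 genes and negative in 5, from -0.56 to 0.48. Their median was -0.034, and that of all genes tested was -0.0080, with 52.0% of these negative.

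**Figure D1:**
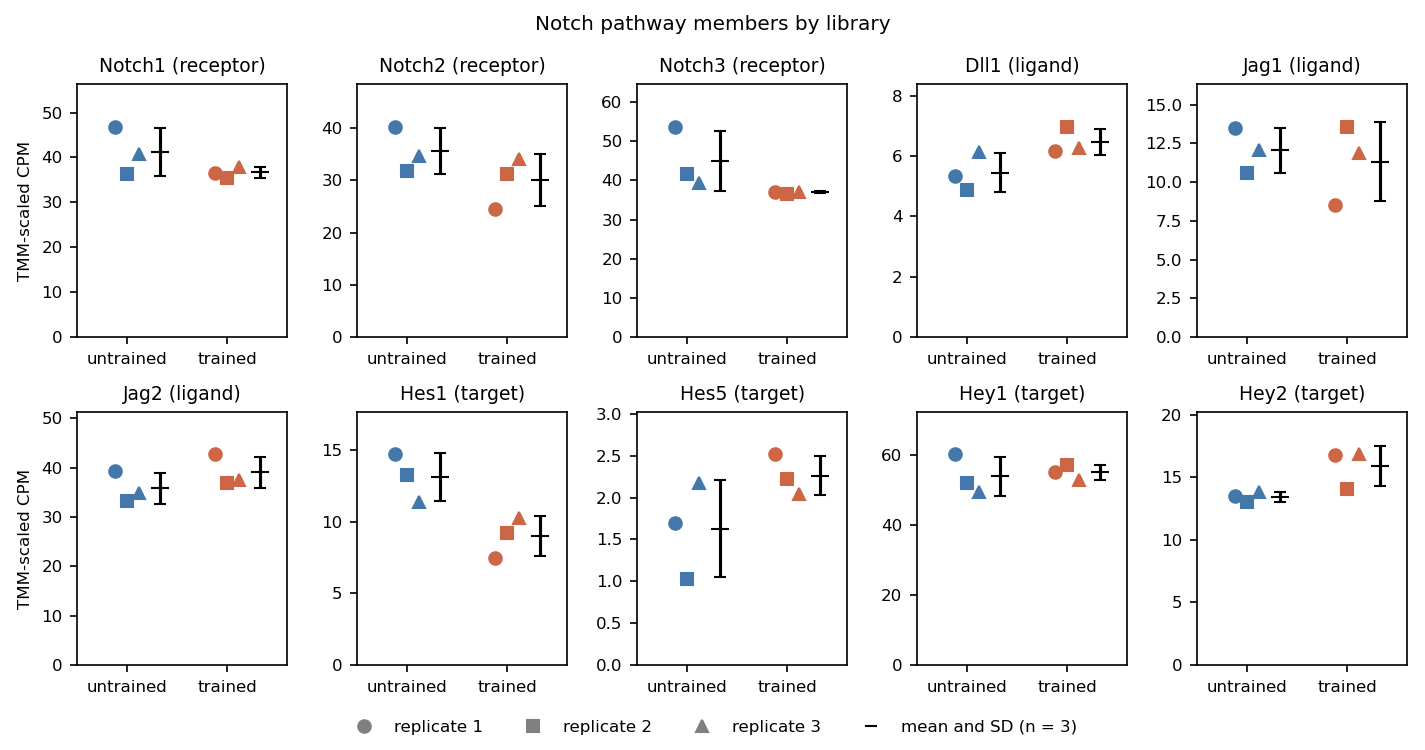
TMM-scaled CPM of each gene (vertical axes start at 0 and differ between panels) in untrained and trained libraries, with the symbol giving the replicate and the bar the mean ± SD of 3 libraries. Hes1 and Notch3 lie lower in all 3 trained libraries than in any untrained one, and Dll1 and Hey2 lie higher.

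Total counts were 15814104 to 26092014 per library. The floor used here for an undetected gene, 3 counts, corresponded to 0.115 to 0.190 CPM of these totals, without TMM factors. All other CPM given are read counts scaled to library size with TMM factors. Markers of neurons, oligodendrocytes, astrocytes, ependymal cells, microglia, endothelial and mural cells were all detected, with 0 markers of any list at 0 in every library. Trained replicate 1 stood apart in peripheral nerve and connective tissue: its Schwann cell markers summed to 46.5 CPM against 513 to 944 CPM in the other libraries, and its fibroblast markers to 97.4 against 247 to 487 CPM. Blood markers, 6 genes of red cells and neutrophils, summed to 74.8 to 170 CPM in trained and 42.7 to 75.5 CPM in untrained cord. In bulk cord, fewer cells of a type and less RNA per cell cannot be told apart.

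The 3 receptor genes all had negative log2 fold changes, and their summed level was 98.2, 103 and 109 CPM in the trained and 141, 110 and 115 CPM in the untrained libraries. The lowest untrained sum, 109.6 CPM, was just above the highest trained one, 109.1 CPM. Untrained replicate 1 had the highest value of the 6 libraries in each of the 3 receptor genes.

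Notch3 was at 37.1, 36.6 and 37.0 CPM with training and 53.7, 41.7 and 39.4 CPM without. The trained libraries lay close together (36.9 ± 0.247 CPM, mean ± SD, n = 3), and the untrained ones spread widely above them (44.9 ± 7.69 CPM, n = 3). The log2 fold change was -0.28 ± 0.11 (SE; 95% interval -0.52 to -0.053), with an edgeR unadjusted p of 0.0201 and adjusted p of 0.404. Without untrained replicate 1 it was -0.13. That library also had the highest summed level of mural cell markers, 337 CPM against 212 to 278 CPM in the others, and of endothelial markers, 510 against 363 to 434 CPM. All 8 endothelial and all 7 tested mural markers had negative log2 fold changes, with medians of -0.17 and -0.22, and the summed levels overlapped between the groups. All 5 tested Schwann cell markers were negative too (median -0.26), as were 52.0% of all genes tested. The part of these cell types in the Notch3 values was not tested.

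Notch1, the receptor best known from neural progenitors, was at 36.6, 35.5 and 37.9 CPM with training and 46.9, 36.2 and 40.7 CPM without. Untrained replicate 2 lay among the trained libraries, so the groups overlapped. Training and no training differed by a log2 fold change of -0.17 ± 0.10 (SE; edgeR adjusted p = 0.569). It was -0.059 without untrained replicate 1 and -0.26 without untrained replicate 2.

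Notch2 was at 24.5, 31.3 and 34.2 CPM with training and 40.3, 31.7 and 34.8 CPM without. Trained replicate 1 was the low library and untrained replicate 1 the high one, and the other 4 lay between 31.3 and 34.8 CPM. Its log2 fold change was -0.25 ± 0.13 (SE; edgeR adjusted p = 0.540), -0.12 without trained replicate 1 and -0.15 without untrained replicate 1.

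**Figure D2:**
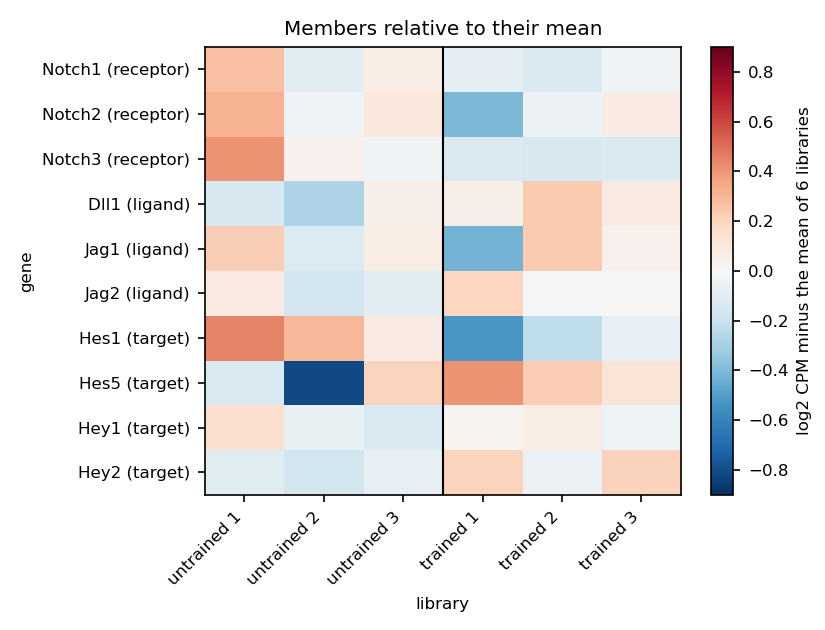
Log2 CPM of each gene minus its mean over the 6 libraries (colour), with libraries along the horizontal axis, untrained to the left of the line. Untrained replicate 1 is the highest library for the 3 receptors, and the darkest blue cell is Hes5 in untrained replicate 2.

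Among the ligands the values went in both directions. Dll1, a Delta-type ligand, was at 6.16, 6.98 and 6.27 CPM with training and 5.35, 4.87 and 6.13 CPM without. Every trained library lay above every untrained one, although trained replicate 1 and untrained replicate 3 were only 6.16 and 6.13 CPM. The log2 fold change of 0.25 ± 0.17 (SE) had a 95% interval of -0.13 to 0.62 and an edgeR adjusted p of 0.666. Dll1 overlaps A930024N18Rik, a long non-coding RNA on the opposite strand, by 867 exon bases. That gene had 238 counts in all libraries together and Dll1 648, and reads within the shared bases cannot be told apart if counting ignored strand.

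Jag2, a Jagged-type ligand, was at 42.7, 36.9 and 37.5 CPM with training and 39.3, 33.2 and 34.9 CPM without. Untrained replicate 1 lay above trained replicates 2 and 3. Its log2 fold change was 0.13 ± 0.09 (SE; edgeR adjusted p = 0.683), 0.054 without trained replicate 1, 0.075 without untrained replicate 2 and 0.21 without untrained replicate 1.

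Jag1, the other Jagged ligand, was at 8.56, 13.6 and 11.9 CPM with training and 13.5, 10.6 and 12.1 CPM without. The trained group held both the lowest and the highest library. The log2 fold change of -0.098 ± 0.17 (SE; edgeR adjusted p = 0.891) turned to 0.077 without trained replicate 1 and to 0.0016 without untrained replicate 1, so its direction rested on single libraries. Its 95% interval, -0.47 to 0.28, takes in ratios of trained to untrained cord from 0.721 to 1.21.

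The values of the target genes lay in both directions. Hes1, the repressor most often used as a readout of Notch activity and also induced by other signals, was at 7.47, 9.20 and 10.2 CPM with training and 14.7, 13.3 and 11.4 CPM without. All 3 trained libraries lay below all 3 untrained ones, with means of 8.97 ± 1.40 and 13.1 ± 1.67 CPM (SD, n = 3 per group). The log2 fold change was -0.56 ± 0.16 (SE; 95% interval -0.90 to -0.22), a ratio of 0.680 with an interval of 0.538 to 0.861. Its edgeR unadjusted p of 0.00365 was the 225th smallest of 16909, and its adjusted p was 0.272. With no filter on low counts, where edgeR called 276 genes in all, Hes1 passed at an adjusted p of 0.0499. Over all alternatives its adjusted p ran from 0.0499 to 0.646 and its log2 fold change from -0.65 to -0.43. The fold change was -0.43 without trained replicate 1, -0.46 without untrained replicate 1 and -0.65 without untrained replicate 3. Endothelial markers summed to 363 to 431 CPM in trained and 426 to 510 CPM in untrained cord, and like Hes1 were lowest in trained replicate 1 and highest in untrained replicate 1. All 8 had negative log2 fold changes, as did all 5 tested Schwann cell markers and 52.0% of all genes tested. In 2 of the 8, Pecam1 and Flt1, every trained library lay lower (edgeR unadjusted p = 0.00334 and 0.00458), and the groups overlapped in the others. Of all genes tested, 8.69% lay lower in this way and 8.13% higher. All 6 microglia and macrophage markers were also negative (median -0.18), with sums of 389 to 543 and 472 to 562 CPM and the same libraries lowest and highest. Of these, Cx3cr1 lay lower in every trained library (edgeR unadjusted p = 0.00719). Mural cell markers, at 212 to 278 CPM in trained and 249 to 337 CPM in untrained cord, had the same libraries lowest and highest as well. Trained replicate 1 was also lowest in the Schwann cell and fibroblast sums, and untrained replicate 1 was highest in 5 of the 10 members. The share of all genes with these libraries lowest and highest was not counted. Astrocyte markers summed to 8373 to 10298 CPM in trained and 9313 to 9831 CPM in untrained cord, with Gfap the largest part at a mean of 4542 CPM. Of these 8 markers 6 had negative log2 fold changes (median -0.12). Slc1a2 and Slc1a3 lay lower in every trained library, and Aldh1l1 and Aldoc lay higher. The part of cell type shares in the Hes1 values was not tested.

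Hes5, a Notch target of neural progenitors, was the least counted of the 10 genes, with 17 to 65 reads per library. It was at 2.52, 2.22 and 2.05 CPM with training and 1.69, 1.02 and 2.17 CPM without. Untrained replicate 3 lay above trained replicate 3, and untrained replicate 2 was the low library. Its log2 fold change, 0.48 ± 0.31 (SE), had the widest 95% interval of the 10, from -0.19 to 1.15, and an edgeR adjusted p of 0.633. It was 0.24 without untrained replicate 2 and 0.73 without untrained replicate 3. Hes5 shares 433 exon bases with Gm20421 on the opposite strand, which had 87 counts in all libraries against 216 for Hes5.

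Hey2, a Hey-type repressor of the vessel wall and heart, was at 16.8, 14.0 and 16.8 CPM with training and 13.5, 13.0 and 13.8 CPM without. Trained replicate 2 came close to the untrained libraries without crossing them. For Hey2 the log2 fold change was 0.24 ± 0.12 (SE; 95% interval -0.017 to 0.50), with an edgeR unadjusted p of 0.0642 and adjusted p of 0.520.

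Hey1, its close relative, was at 55.1, 56.9 and 52.8 CPM with training and 60.1, 51.8 and 49.4 CPM without. The trained libraries lay inside the untrained range. For Hey1 the log2 fold change was 0.030 ± 0.08 (SE; edgeR adjusted p = 0.938) and -0.027 without untrained replicate 3. Its 95% interval covered ratios from 0.900 to 1.16.

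**Figure D3:**
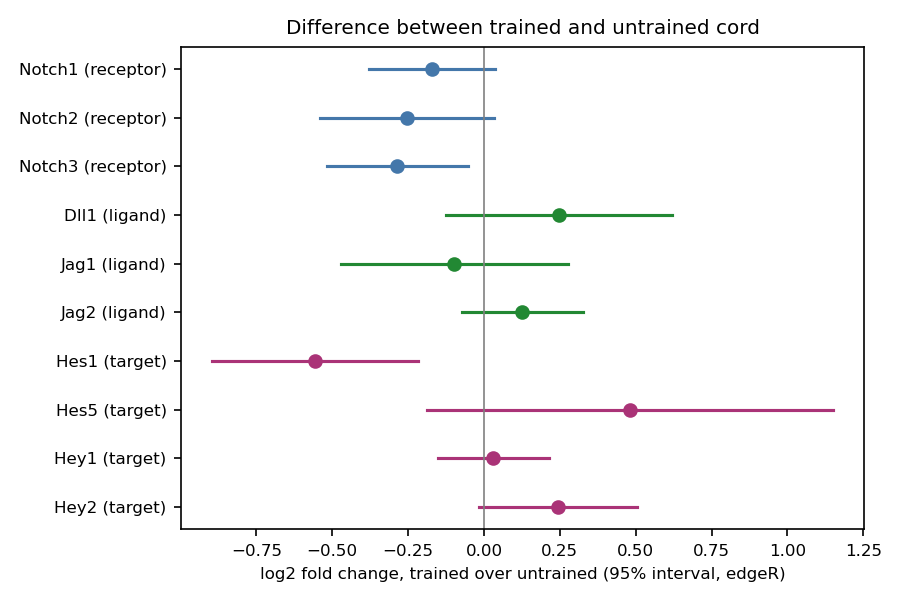
Log2 fold change of trained over untrained cord with its 95% interval (horizontal axis) for each of the 10 genes, coloured by role. The intervals of Hes1 and Notch3 lie below 0, and that of Hes5, the gene with fewest reads, is the widest.

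RBPJ binds the letters TGGGAA on either strand of its target promoters, and the promoters of the target genes are shown to let these letters be seen. RefSeq promoters of build GRCm38.p6 were found for 8 of the 10 genes, among them Hes5 and Hey2 of the targets. In the 250 bases before the annotated start, Hes5 (chr4:154960673-154960922, plus strand) held 2 matches and Hey2 (chr10:30842784-30843033, minus strand) held 1. Both sequences run 5′ to 3′ towards the start, with TGGGAA or its reverse complement TTCCCA in capitals.
Hes5: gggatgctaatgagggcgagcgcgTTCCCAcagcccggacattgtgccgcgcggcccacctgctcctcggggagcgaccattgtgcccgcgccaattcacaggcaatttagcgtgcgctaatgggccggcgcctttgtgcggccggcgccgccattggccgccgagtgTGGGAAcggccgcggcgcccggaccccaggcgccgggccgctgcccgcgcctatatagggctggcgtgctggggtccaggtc
Hey2: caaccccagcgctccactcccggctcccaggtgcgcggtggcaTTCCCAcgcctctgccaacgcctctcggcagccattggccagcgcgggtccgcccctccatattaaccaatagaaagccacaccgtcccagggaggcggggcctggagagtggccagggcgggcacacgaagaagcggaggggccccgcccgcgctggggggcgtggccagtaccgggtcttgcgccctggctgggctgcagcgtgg

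The Hes5 matches began 226 bases (reverse strand) and 82 bases (forward strand) before the start, and the Hey2 match 207 bases before it (reverse strand). Of all 32851 promoter windows of this length 21.6% held at least 1 match on either strand and 2.77% held 2 or more. The windows of Notch1, Notch2, Notch3, Dll1, Jag1 and Jag2 held 0. A match describes letters only, and neither Hes5 nor Hey2 passed the test.

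Read counts grow with transcript length, so levels of different genes were compared as CPM per kb of the gene length in the table. Hey1 stood highest at 16.6 ± 1.18 CPM per kb (mean ± SD over 6 libraries), and its lowest library, 15.1, was above the highest library of every other gene. Hes1 (5.42 ± 1.30), Jag2 (5.37 ± 0.480) and Notch3 (5.09 ± 0.815 CPM per kb) came next, with overlapping ranges. Hey2 (3.19 ± 0.370), Notch2 (3.04 ± 0.481) and Notch1 (2.74 ± 0.300 CPM per kb) also overlapped, and all 3 lay below the lowest library of Notch3, 4.55. Jag1 (2.01 ± 0.326), Hes5 (1.43 ± 0.386) and Dll1 (1.41 ± 0.176 CPM per kb) were lowest, with neighbouring ranges overlapping. Among the targets Hey1 was thus the most abundant transcript per length and Hes5 the least.

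**Figure D4:**
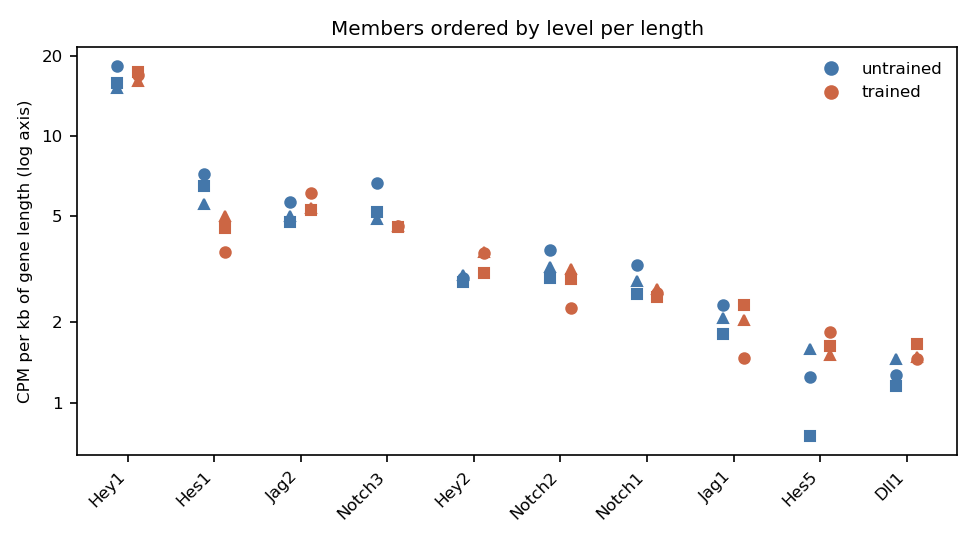
CPM per kb of gene length (log axis) of the 10 genes in each library, ordered by their mean, with untrained libraries to the left and trained ones to the right at each gene. Hey1 stands above all others, and Hes5 and Dll1 are lowest.

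The rest of the pathway was read from a list of 60 further genes, of which 58 had enough reads to be tested. None passed over all genes in edgeR, DESeq2 or limma-voom. At an unadjusted edgeR p below 0.05 there were 10, of which 6 were higher in trained cord (10.3% of the 58, against 4.47% of all genes tested) and 4 lower (6.90%, against 5.55%). The groups did not overlap in 12 (20.7%, against 16.8%). The median log2 fold change was 0.017, with 30 genes positive and 28 negative. The genes not tested, Hes2 and Helt, had 0 counts in every library.

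Among the remaining receptor and ligand genes, Dll3, a divergent Delta ligand that does not activate Notch on neighbouring cells, was at 4.57, 6.36 and 4.78 CPM with training and 2.73, 2.52 and 4.73 CPM without. Untrained replicate 3 lay above trained replicate 1. The log2 fold change of Dll3 was 0.65 ± 0.26 (SE; edgeR adjusted p = 0.430), and 0.99 without untrained replicate 3. Dll4, the Delta ligand of vessel sprouting, had a log2 fold change of -0.35 ± 0.19 and Notch4, an endothelial receptor, one of -0.11 ± 0.14.

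Of the non-canonical ligands, Dlk2, a membrane protein of the Delta-like family, was at 6.93, 7.04 and 7.26 CPM with training and 5.68, 3.97 and 4.15 CPM without. Every trained library lay above every untrained one, with a log2 fold change of 0.62 ± 0.19 (SE; edgeR adjusted p = 0.317). Dner, a neuronal Delta- and Notch-like protein, was at 0.16 ± 0.07 and Cntn1, a neural adhesion molecule, at -0.12 ± 0.08 on the log2 scale.

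Markers of oligodendrocyte precursors summed to 430 to 465 CPM in trained and 411 to 416 CPM in untrained cord. Of the 6 markers 4 had positive log2 fold changes and 0 passed over all genes. Sox10, which mature oligodendrocytes also express, and C1ql1 lay higher in every trained library, with means of 202 against 177 and 38.0 against 29.0 CPM. Sox10 was the largest part of the sum, so the gap between the sums does not stand for precursors alone. Cspg4, Olig2 and Matn4 overlapped between the groups. Pdgfra, the defining receptor of these precursors, lay lower in every trained library, at 56.9 against 62.4 CPM. Groups lay apart in this way in 8.13% (higher) and 8.69% (lower) of all genes tested. The part of these precursors in the values of the pathway genes was not tested.

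Of the genes that act on ligands and receptors before signalling, Mib1, the ubiquitin ligase that lets ligands be internalised, was at 116, 118 and 118 CPM with training and 135, 140 and 144 CPM without. The groups did not overlap, at a log2 fold change of -0.25 ± 0.07 (SE). Mib1 had the smallest edgeR unadjusted p of the 60 genes, 0.00219, with an adjusted p of 0.246. The endocytic adaptors Epn1 and Epn2 were at 0.13 ± 0.07 and 0.035 ± 0.08 on the log2 scale. Rfng, radical fringe, which adds a sugar to Notch, had a log2 fold change of 0.23 ± 0.08 (edgeR adjusted p = 0.394), and Poglut1, a glucosyltransferase of Notch, one of 0.020 ± 0.07.

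The cleavage genes had values in both directions. Adam10, the protease of the first activating cut, was at 85.5, 106 and 97.8 CPM with training and 108, 113 and 117 CPM without, a log2 fold change of -0.23 ± 0.08 (SE; edgeR adjusted p = 0.390) and -0.15 without trained replicate 1. Psenen, a subunit of gamma-secretase, was at 0.17 ± 0.07 on the log2 scale (edgeR adjusted p = 0.474). Of the 10 cleavage genes 5 were positive and 5 negative.

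In the nucleus, Rbpj, the DNA-binding partner of the receptor, was at 39.9, 44.0 and 40.8 CPM with training and 47.8, 43.6 and 49.8 CPM without. Trained replicate 2 lay above untrained replicate 2, and the log2 fold change was -0.18 ± 0.08 (SE; edgeR adjusted p = 0.493). Maml3, a Mastermind coactivator, was at 12.7, 11.9 and 12.1 CPM with training and 9.34, 9.73 and 9.71 CPM without, with no overlap and a log2 fold change of 0.35 ± 0.13 (edgeR adjusted p = 0.380). Maml1 and Maml2, its relatives, were at -0.16 ± 0.12 and -0.21 ± 0.13. The acetyltransferase Kat2b was at 0.021 ± 0.07 on the log2 scale.

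Among the negative regulators, Itch, a ubiquitin ligase that acts on Notch, was at 73.8, 72.9 and 66.8 CPM with training and 83.7, 80.8 and 85.1 CPM without. The groups did not overlap, and the log2 fold change was -0.22 ± 0.07 (SE; edgeR adjusted p = 0.323). The Deltex genes Dtx1 and Dtx3 were at 0.087 ± 0.08 and 0.053 ± 0.07 on the log2 scale. Nrarp, a direct Notch target that feeds back on the receptor, was at -0.39 ± 0.28 (SE; edgeR adjusted p = 0.671), with overlapping groups. It had 31 to 77 reads per library and was named after its values were seen. The 6 tested Hes/Hey relatives held 0 genes at an unadjusted p below 0.05, and the most counted of them, Bhlhe40 and Bhlhe41, were at -0.030 ± 0.08 and -0.059 ± 0.08.

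**Figure D5:**
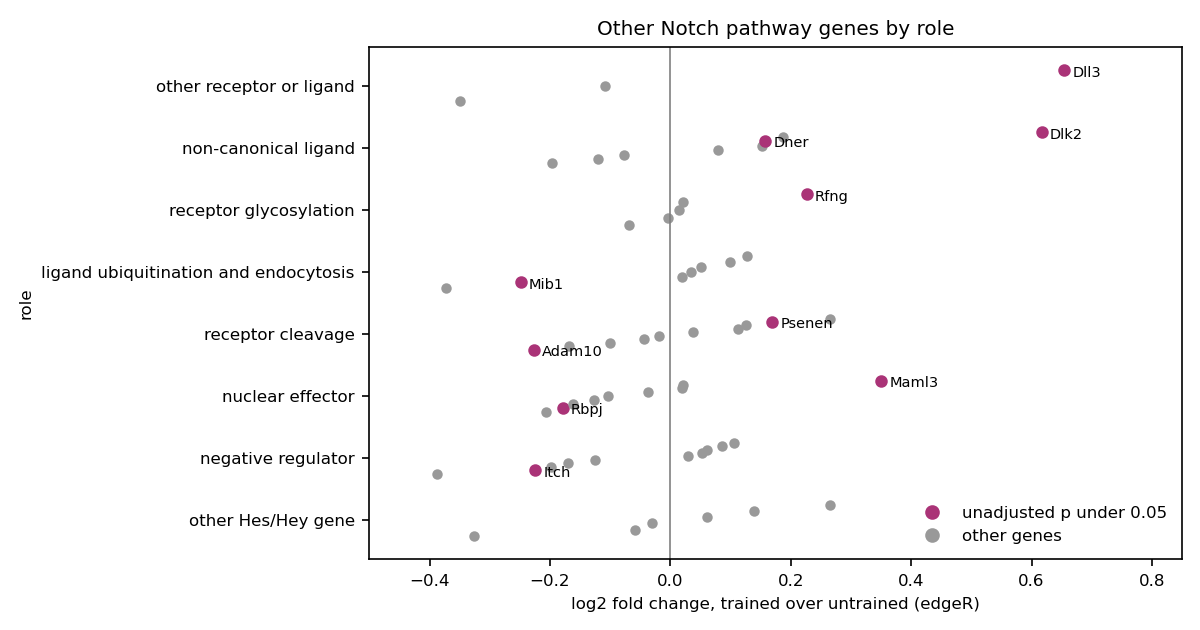
Log2 fold change of trained over untrained cord (horizontal axis) of the 58 tested pathway genes beyond the 10, by role, with the 10 genes at an unadjusted p below 0.05 coloured and named. Points lie on both sides of 0 in every role, and Dll3 and Dlk2 lie farthest to the right.

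As a description of the pattern across libraries, the genes most like each member were taken by Pearson's r of log2 CPM over the 6 libraries, among about 11351 well counted genes that all share the same 6 libraries. For Hes1 they were Fmn1 (r = 0.996), Snap23 (0.991) and Nbeal1 (0.989), and for Notch3 Mospd2 (0.980), Fmnl3 (0.974) and Pdlim5 (0.968). For Notch1 they were Xpo6 (0.996), Frmd4b (0.983) and Vcl (0.982), and for Notch2 Ehd2 (0.995), Rps4x (0.988) and Arhgap29 (0.988). The ligand Dll1 was most like Napa (0.989), Pknox1 (0.981) and Lcmt2 (0.980), Jag1 like Alcam (0.992), Tmed7 (0.980) and B4galt4 (0.974), and Jag2 like Spns2 (0.979), Mcrip2 (0.978) and Gramd4 (0.974). Hes5 was most like Hmga1 (0.997), Slc25a42 (0.996) and Mul1 (0.989), Hey2 like Rrp36 (0.999), Tmem128 (0.994) and Zfp444 (0.993), and Hey1 like Prlr (0.962), Pheta1 (0.959) and Slc33a1 (0.956). No gene appeared under more than 1 member. Dll1 and Hes5 lay below the mean log2 CPM of 3 needed to be among the genes compared, so they could not be listed. None of the other members was listed under another. With only 3 genes taken from so many, this says little about shared patterns.

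Positions are those of the deposited table, and 9 of the 10 genes have the same ends in the GENCODE annotation of GRCm38 (all but Notch3). Notch1 (ENSMUSG00000026923) spans chr2:26457903-26516663, Notch2 (ENSMUSG00000027878) chr3:98013527-98150361 and Notch3 (ENSMUSG00000038146) chr17:32120820-32166880. Dll1 (ENSMUSG00000014773) spans chr17:15367354-15376872, Jag1 (ENSMUSG00000027276) chr2:137081456-137116644 and Jag2 (ENSMUSG00000002799) chr12:112907819-112929776. Hes1 (ENSMUSG00000022528) spans chr16:30064384-30067796, Hes5 (ENSMUSG00000048001) chr4:154960923-154962371, Hey1 (ENSMUSG00000040289) chr3:8663359-8667256 and Hey2 (ENSMUSG00000019789) chr10:30832359-30842801. Notch3 shares 488 exon bases with Gm17276 on the opposite strand, which had 243 counts against 4440 for Notch3. Notch1 shares 1068 exon bases with 0610009E02Rik on the opposite strand, which had 61 counts against 4230 for Notch1. Notch2 shares 541 with Gm42820 on the same strand, which had 7 counts against 3501 for Notch2. Jag1, Hes1, Hey1 and Hey2 overlap no other gene of the table.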

How the data were processed

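The authors deposited raw read counts by Ensembl gene for the 6 libraries in a single table, with symbols, coordinates and gene lengths and no normalization, per the file headers. Per the labels' protocols, total RNA was sequenced as paired-end reads on an Illumina machine. Bowtie (version 0.12.2) and both mm8 and mm9 appear in the submitters' processing notes without a role. The deposited gene ends match the annotation of GRCm38, which is neither of these builds, for 9 of the 10 members. What counted the reads, on which annotation and with which strand setting is not given in the sources used here.

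Tests ran over the whole table in edgeR 4.0.16 (R 4.3.3) with filterByExpr, TMM factors and a robust quasi-likelihood fit on group, on 16909 genes, with Benjamini-Hochberg adjustment and a threshold of 0.05. A standard error is the log2 fold change over the square root of F, and CPM carry the TMM factors, apart from the floor and the 1 CPM filter. Scaling by RLE, upper quartile or totals, DESeq2 1.42.0, limma-voom (limma 3.58.1), filters of none or 1 CPM in 3 libraries, a replicate block and each library left out were the alternatives. On 5 simulated sets of about 16657 genes the fit recovered 53.4% of 1.5-fold and 79.0% of 2-fold changes, and 10.4% of calls were false, more than the threshold of 0.05 allows for. These sets held 100 changed genes per fold, while 10 genes passed in the data, so the rates need not hold for the members.

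The members and lists were chosen with earlier results of these data known. All members were named, and of the wider list those with an unadjusted p below 0.05 and up to 2 of highest CPM per role, some of which are not reported here; Nrarp, Maml1, Maml2, Hes2 and Helt were named after their values were seen.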

Additional observations from a re-analysis of the deposited data

How the results depend on the processing

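The count of Notch members past the test was 0 under every alternative but one, no filter on low counts, where it was 1 (Hes1); that of the wider pathway genes was 0 under all. Over all genes the count was 10, but 86 in DESeq2, 276 with no filter and 5 with the replicate block, and between 4 and 221 when 1 library was left out (21, 4 and 221 without trained replicates 1, 2 and 3); the cause was not tested. Of 140 member values under the alternatives 3 turned in direction, all with 1 library left out: Hey1 ran from -0.027 (without untrained replicate 3) to 0.13, and Jag1 from -0.25 to 0.077 (without trained replicate 1; 0.0016 without untrained replicate 1). The same replicate numbers did not deviate together (r = -0.18, -0.091 and -0.13), and no library correlated best with its own number. Deviations from a mean of 3 libraries sum to 0 in each group, so such values cannot exclude a pairing. With the replicate block 0 members passed. At 17 to 65 reads per library the depth limits Hes5 most.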
